A study of Homo sapiens with 4 samples.

Results

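Retromer and the sorting nexins that work with it were examined as 8 genes: VPS35, VPS26A, VPS26B and VPS29 for the retromer trimer, and SNX1, SNX2, SNX5 and SNX6 for the membrane-bending dimer. They are 8 of the 22031 genes whose transcripts could be matched in the deposited table. SNX6 was chosen by its summed value, which was higher in the mimic libraries, and the other genes were added as its complex partners. The mimic-against-control values of SNX6 are therefore given as a description without a test.

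The libraries hold polyadenylated RNA of U87, a human glioblastoma cell line. In 2 libraries the cells had received 50 nM of a tRF-3009a mimic, which copies a transfer RNA fragment, and for the 2 control libraries they had received 50 nM of ssGL2, which the labels name without describing it. All 4 libraries shared the lipid transfection reagent and the 48 h before RNA extraction. The libraries are numbered 1 and 2 in each group, and nothing in the labels says that they came from separate cultures, so p-values measure the spread between these libraries, which may be technical.

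Retromer is a coat on endosomes that picks up receptors and transporters and sends them back to the trans-Golgi network or the cell surface instead of the lysosome. VPS35 is the scaffold of the trimer, VPS26A and VPS26B are alternative arms that contact cargo adaptors, and VPS29 binds regulators at the other end. SNX1 or SNX2 pairs with SNX5 or SNX6, and these dimers use curved BAR domains to form the tubules that carry cargo away. The mannose 6-phosphate receptor is a classical cargo, and retromer is best known in the brain because inherited changes in VPS35 cause a form of Parkinson disease.

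The sum that drew attention to SNX6 covers only the transcripts that could be matched, so the annotation comes first. Of the 10 SNX6 transcripts in GENCODE v29 (GRCh38, chromosome 14, 34561094 to 34630183, minus strand), 6 had a row in the table. Only 2 of those 6 rows carried the same version as in GENCODE v29. In all, 11355 rows had a later version and 0 had an earlier one, and 10166 rows had an identifier that GENCODE v29 lacks, so the table was built on a later release. A transcript given to a gene after GENCODE v29 is not in its sum, and every SNX6 value below describes these 6 transcripts and not necessarily the whole output of the gene. Of the rows without a match, 444 had a mean above the whole SNX6 sum. If a row of that kind belongs to SNX6, its level, its place among the 8 genes and its difference between mimic and control could all change, and the difference could vanish.

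The SNX6 row with the largest values was SNX6-206 (ENST00000556162), annotated for nonsense-mediated decay, the pathway that destroys messages with an early stop codon. Its 15 exons include exon 6 at chromosome 14, 34604135 to 34604268, which is 134 bases long and absent from SNX6-201, the full-length coding transcript with 14 exons and 1254 coding bases. Its coding part is annotated as 96 bases and ends at chromosome 14, 34609733, upstream of exon 6. The start of exon 2 also differs, and the sequences across the junction of exons 1 and 2 are shown because this junction holds the only stretch that tells SNX6-206 from all other transcripts of GENCODE v29. Of its 31-base words, 28 (1.53%) occur in no other transcript, and all 28 cross it. Capitals mark the 4 bases at the start of exon 2 that SNX6-201 has and SNX6-206 lacks, in the sequences of GENCODE v29 written 5′ to 3′. For SNX6-208, also annotated for decay, capitals mark the 40 bases of its shorter exon 6 (chromosome 14, 34604135 to 34604174) after the last 15 bases of exon 5.
SNX6-201: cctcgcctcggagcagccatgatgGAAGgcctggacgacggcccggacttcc
SNX6-206: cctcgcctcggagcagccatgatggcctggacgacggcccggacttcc
SNX6-208: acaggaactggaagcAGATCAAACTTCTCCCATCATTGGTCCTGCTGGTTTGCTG
The rows of SNX6-201, SNX6-206 and SNX6-208 all carried a later version, so the sequence the authors counted against can differ from the one shown.

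Summed over its 6 rows, SNX6 had normalized values of 526 and 488 in mimic libraries 1 and 2, against 321 and 333 in control libraries 1 and 2. Both mimic libraries lay above both control libraries. On the scale of log2(value + 1) the mimic was higher by 0.63 ± 0.24 (SE, n = 2 each). It was higher by 0.71 within number 1 and by 0.55 within number 2. Each SE here and below is limma's, which draws on the spread of all genes or transcripts tested besides the row's own values. The sums rest on 297 to 583 recovered reads per library. No other gene of the 8 had fewer reads in its lowest library, where VPS26B had 344.

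Most of the higher sum lay in SNX6-206, and the other SNX6 rows together were higher in the mimic within number 1 only. SNX6-206 had 316 and 330 in the mimic libraries against 242 and 173 in the controls, and its groups did not overlap. It made up 63.6% of the SNX6 sum over all libraries and 64.4% of the difference between the group means. Its log2 fold change was 0.66 ± 0.36 (SE, n = 2 each). Without SNX6-206 the sum was 210 and 157 in the mimic libraries against 79.1 and 160 in the controls, so that mimic 2 lay below control 2. The log2 fold change of 0.69 without SNX6-206 therefore rests on the low value of control 1, and within number 2 the whole excess of the sum lay in SNX6-206.

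The coding rows of SNX6 were less uniform than the sum. SNX6-202 (ENST00000396526), coding and with its own long last exon, had 79.1 and 79.3 in the mimic libraries against 41.6 and 80.7 in the controls, so the low value of control 1 set its difference. SNX6-209 (ENST00000557265), a shorter coding transcript, had 104 and 36.1 in the mimic against 36.5 and 60.5 in the controls, and the groups overlapped. SNX6-201 (ENST00000362031), the full-length coding transcript, had 11.7 and 28.7 in the mimic against 1.04 and 1.12 in the controls. These are 13 and 30 reads in the mimic against 1 and 1 in the controls, so the low side of this row rests on 2 reads in all. The groups of SNX6-201 did not overlap, and the row gave 10.6% of the difference of the sum. SNX6-209 gave 11.9% and SNX6-202 10.1%.

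The remaining SNX6 rows were close to nothing. SNX6-208 had 4.51 and 6.66 in the mimic and was listed at 0 in both controls, which is 5 and 7 reads against 0, where a count of 0 allows up to 3 reads. SNX6-207, which retains an intron, had 10.9 and 6.61 in the mimic against 0 and 17.9 in the controls. Summed over its 3 coding rows, SNX6 had 195 and 144 in the mimic against 79.1 and 142 in the controls (log2 fold change 0.65), and the groups did not overlap by a small margin between mimic 2 and control 2. The 2 rows with the version of GENCODE v29, SNX6-202 and SNX6-207, summed to 89.97 and 85.91 in the mimic against 41.6 and 98.6 in the controls, and these groups overlapped. The 4 rows with a later version summed to 436 and 402 in the mimic against 280 and 234 in the controls. This split by version was chosen after the values were seen.

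**Figure D1:**
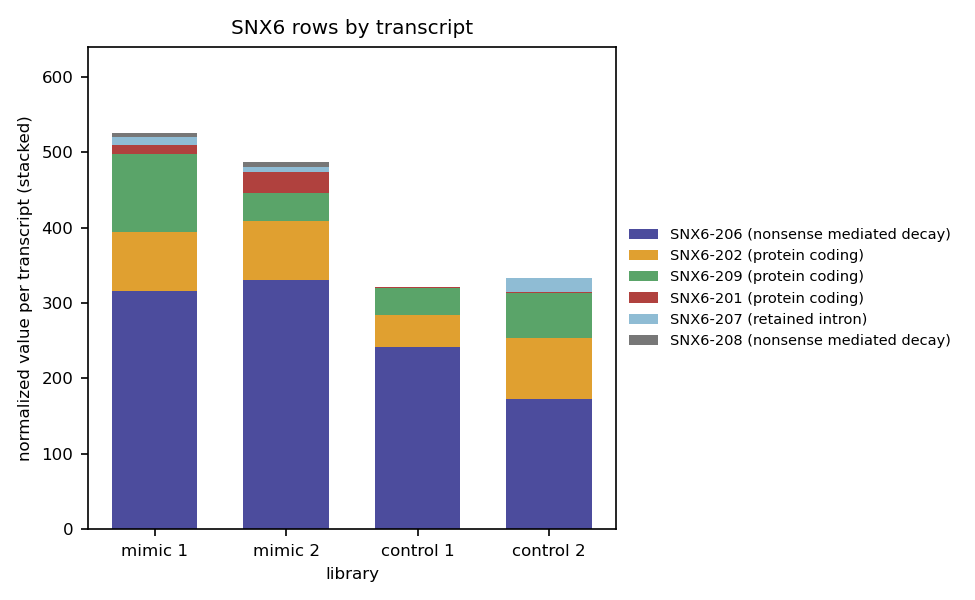
Stacked bars give the normalized value of each SNX6 transcript (y axis) in the 4 libraries (x axis). The mimic bars reach 526 and 488 and the control bars 321 and 333, with SNX6-206 the largest segment in all 4.

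The share of SNX6-206 within the gene did not follow the treatment. Of the recovered SNX6 reads it held 60.0% (95% Wilson interval 56.0% to 63.9%) in mimic 1 and 67.8% (63.6% to 71.7%) in mimic 2, while it held 75.4% (70.3% to 79.9%) in control 1 and 51.9% (46.2% to 57.5%) in control 2. The 2 control libraries enclosed both mimic libraries. The intervals cover counting error only, and the split of reads among near-identical transcripts adds error that the files do not give. SNX6-209 has 0 words of 31 bases to itself, so its reads cannot be told from those of other SNX6 transcripts by such words. SNX6P1, a pseudogene, shares 96 words with SNX6, and ENSG00000279423 shares 641, and neither had a row here.

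For VPS35, VPS29 and SNX1 the difference between mimic and control was smaller than its standard error. VPS35 had 7217 and 6522 in the mimic libraries against 6684 and 6627 in the controls (log2 fold change 0.04 ± 0.19, SE, n = 2 each). VPS29 had 2580 and 2230 in the mimic against 2313 and 2097 in the controls (log2 0.12 ± 0.21). SNX1 had 3138 and 3365 in the mimic against 3231 and 3081 in the controls (log2 0.04 ± 0.19). In all 3 genes the mimic and control values overlapped.

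The other partners spread widely within each group. VPS26A had 4397 and 6981 in the mimic against 3782 and 7048 in the controls (log2 0.10 ± 0.42), and VPS26B had 1067 and 431 in the mimic against 1054 and 386 in the controls (log2 0.09 ± 0.70). SNX2 had 4117 and 5845 in the mimic against 3597 and 5036 in the controls (log2 0.20 ± 0.30), and SNX5, the closest relative of SNX6, had 3481 and 2652 in the mimic against 3076 and 2569 in the controls (log2 0.11 ± 0.25). Groups overlapped for these genes too, and low and high values went with the replicate number.

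**Figure D2:**
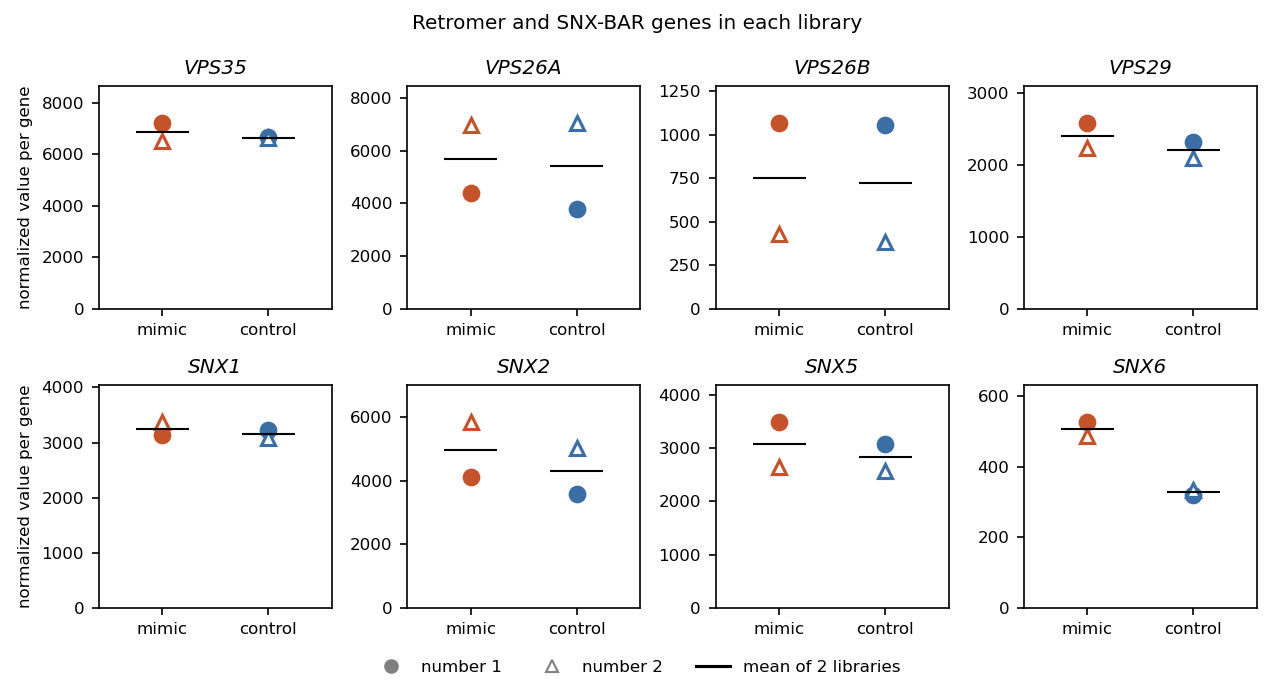
Each panel gives the normalized value of a gene (y axis, from 0) in the mimic libraries at the left and the control libraries at the right, with circles for number 1, triangles for number 2 and a line at the mean of 2 libraries. SNX6, chosen for its higher sum in the mimic, is the only panel in which both mimic points lie above both control points.

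No partner passed limma's test of mimic against control, with a Benjamini-Hochberg adjusted p of 1 for each of the 7. Over all 16535 genes tested 0 were called (0%), with 26 at an unadjusted p under 0.05, and edgeR and DESeq2 on recovered reads also called 0, with 35 and 23 at an unadjusted p under 0.05. The spread within a group contains the difference between numbers, so the standard errors are wide. Groups that did not overlap with the mimic higher were found for 6.18% of all genes and for 1 of the 8, SNX6, which had been chosen for it. With the mimic lower they were found for 6.21% of all genes and for 0 of the 8.

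By transcript, the 7 partners had 66 rows, of which 53 had a mean of at least 10 and were tested. None passed (0 of 53, and 0% of all 58500 transcripts tested, where 922 had an unadjusted p under 0.05). Groups did not overlap for 6 with the mimic higher (11.3%, against 10.1% of all transcripts) and for 6 with the mimic lower (11.3%, against 10.4%). These shares are close to those of the whole table. VPS26B-202 and SNX5-201 hold 4.59% and 6.16% of their genes. Both are named outside the naming rule and had the smallest unadjusted p of the 53. VPS26B-202, a coding transcript, had 89.1 and 39.1 in the mimic, against 6.72 in control 2 and a listed 0 in control 1. These are 99 and 41 reads in the mimic against 6 in control 2 and 0 in control 1. SNX5-201, also coding, had 153 and 120 in the mimic against 218 and 234 in the controls, without overlap (log2 fold change -0.73 ± 0.35, adjusted p of 1 in limma). At the word length used for SNX6, SNX5-201 has 0 words to itself. Its reads cannot be told from those of other SNX5 transcripts by such words, so its difference may reflect how reads were split. VPS26B-202 has 25 such words (1.64%) to itself. SNX5-202, which holds more of SNX5, had 1187 and 994 in the mimic against 1306 and 870 in the controls, and its groups overlapped.

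VPS35, SNX2 and SNX6 were carried mainly by rows that are not annotated as coding. Rows annotated for nonsense-mediated decay held 89.5% and 90.7% of VPS35 in the mimic libraries and 89.9% and 90.9% in the controls. VPS35 shares 486 words of 31 bases with the pseudogene VPS35P1, which had no row here.

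SNX2 was led by SNX2-209, a processed transcript with no annotated coding part, with 2199 and 2856 in the mimic against 1687 and 2409 in the controls. Coding rows held 28.2% and 30.5% of SNX2 in the mimic and 32.1% and 32.9% in the controls. They held 50.9% and 54.6% of SNX5 in the mimic and 60.8% and 53.2% in the controls. SNX1, VPS26A and VPS26B were at least 94.9% coding in every library. VPS29 was 75.1% and 82.8% coding in the mimic and 74.4% and 77.8% in the controls, led by VPS29-201 with 1100 and 1171 in the mimic against 1055 and 1159 in the controls. Coding shares of SNX6 were 37.0% and 29.5% in the mimic against 24.6% and 42.8% in the controls, lower than in VPS29 in all 4 libraries.

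Most other transcripts with at least 10% of their gene overlapped between groups. VPS26A-202 had 2919 and 4265 in the mimic against 2391 and 4100 in the controls, and VPS26A-203 had 1157 and 2138 in the mimic against 1174 and 2446 in the controls. VPS26B-201, which is nearly all of VPS26B, had 960 and 374 in the mimic against 1021 and 364 in the controls. VPS29-207 had 479 and 408 in the mimic against 361 and 289 in the controls, without overlap (log2 0.45 ± 0.33), and VPS29-204 had 281 and 172 in the mimic against 238 and 242 in the controls.

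SNX1 was spread over 3 coding transcripts of this size. SNX1-208 had 1289 and 1393 in the mimic against 1297 and 1089 in the controls, SNX1-211 had 818 and 907 in the mimic against 967 and 921 in the controls, and SNX1-213 had 663 and 657 in the mimic against 670 and 605 in the controls. Of these only SNX1-211 had groups that did not overlap, with the mimic lower (log2 -0.13 ± 0.27). SNX2-201 had 604 and 963 in the mimic against 599 and 836 in the controls, SNX2-202 had 520 and 773 in the mimic against 512 and 714 in the controls, and SNX2-213 had 514 and 694 in the mimic against 500 and 741 in the controls. SNX5-209 had 628 and 329 in the mimic against 376 and 358 in the controls, and SNX5-211 had 324 and 246 in the mimic against 344 and 278 in the controls. All of these SNX2 and SNX5 transcripts overlapped between groups.

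Levels were compared between genes per length, as the sum over transcripts of the value per kilobase, scaled to the same total in every library. Within the complex SNX2 was highest, with a mean of 213 over the 4 libraries (range 165 to 270), followed by VPS29 at 162 (142 to 191) and VPS26A at 133 (86.3 to 173). SNX1 at 116, VPS35 at 113.04 and SNX5 at 113.00 came next. Neighbours in this order overlapped in their ranges down to SNX5. SNX6 at 16.9 (12.0 to 23.7) lay below SNX5 (95.7 to 145) without overlap, and VPS26B at 14.3 (7.38 to 21.6) overlapped with SNX6. The level of SNX5 over that of SNX6 was 6.10 and 5.61 in the mimic libraries, against 9.36 and 6.735 in the controls. Both the low place of SNX6 and these ratios hold for its 6 matched rows only. The levels of the other genes likewise cover only their matched rows.

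**Figure D3:**
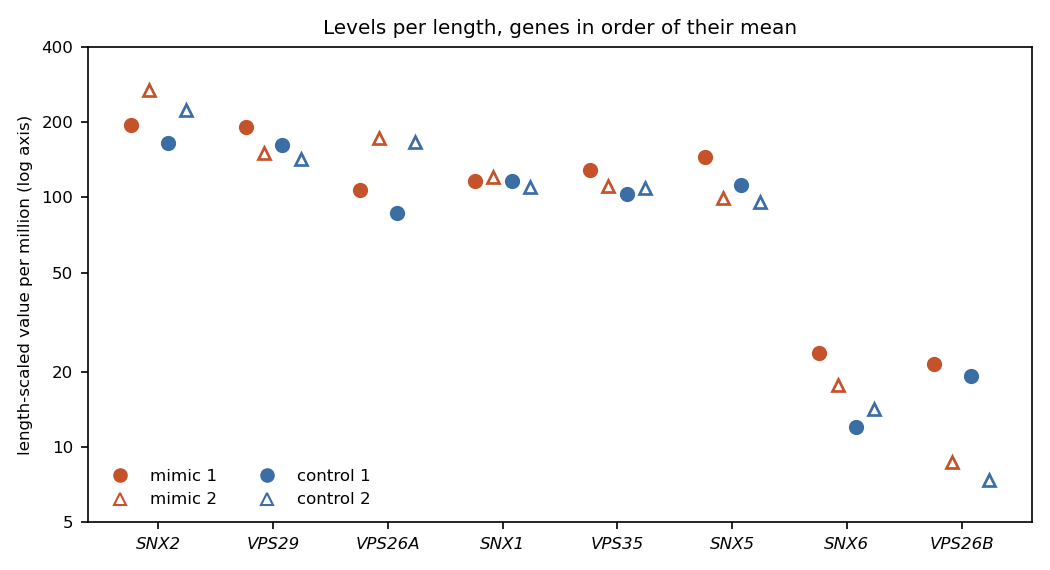
Points give the value per kilobase at a common total per library on the y axis (log scale) of each gene in the 4 libraries, with the genes ordered by mean along the x axis. SNX6 and VPS26B, at means of 16.9 and 14.3, sit apart from the other genes, whose means run from 113 to 213.

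The clearest differences in the complex lay between the replicate numbers, a comparison that was not used to choose the genes. Libraries numbered 2 had more VPS26A and less VPS26B than libraries numbered 1, in the mimic and in the control alike. VPS26A had 6981 in mimic 2 and 7048 in control 2, against 4397 in mimic 1 and 3782 in control 1. The log2 difference was 0.78 ± 0.09 (SE, n = 2 per number), with limma's adjusted p = 0.000104. For VPS26B the number 2 values were 431 and 386, against 1067 and 1054 for number 1, a log2 difference of -1.38 ± 0.11 with limma's adjusted p = 1.12e-05. Each gene kept its direction in both treatments.

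Per length, VPS26A over VPS26B was 19.8 in mimic 2 and 22.7 in control 2, against 4.95 in mimic 1 and 4.47 in control 1. The summed level of both arms was 182 and 175 in number 2 against 129 and 106 in number 1.

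SNX2 rose and SNX5 fell in number 2, by less. SNX2 values were 5845 and 5036 in number 2, against 4117 and 3597 in number 1, a log2 difference of 0.50 ± 0.10 with limma's adjusted p = 0.00299. For SNX5 the number 2 values were 2652 and 2569, against 3481 and 3076 for number 1, a log2 difference of -0.33 ± 0.09 with limma's adjusted p = 0.0126. Without mimic 2 the log2 difference was 0.39 for SNX2 (limma's adjusted p = 0.0764) and -0.35 for SNX5 (0.0955), and without control 2 it was -0.30 for SNX5 (0.132). In these fits the lone library of number 2 is assumed to vary like those of number 1.

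The other 4 genes did not pass. The log2 difference was -0.18 ± 0.09 for VPS29 (limma's adjusted p = 0.132, and 0.0375 without control 1), -0.08 ± 0.08 for VPS35 (0.423), 0.02 ± 0.08 for SNX1 (0.884) and -0.03 ± 0.24 for SNX6 (0.932). For SNX6 the 2 libraries of each number overlapped, since the mimic was high and the control low within each.

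The share called among the 8 genes was close to that of all genes. They had 2 called higher and 2 called lower, where 50.2% of all genes tested were called between numbers, 26.0% higher and 24.2% lower in number 2. Without mimic 2 the count over all genes was 5163 and without control 2 it was 5430, against 8301 with all libraries. What separates the numbers is not given in the labels.

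**Figure D4:**
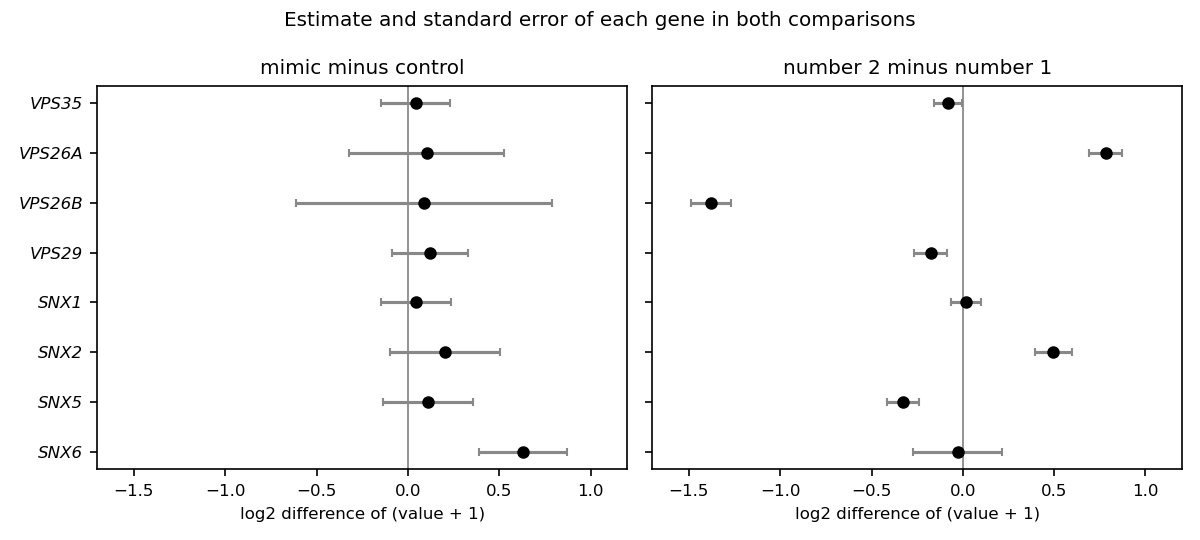
Points give the log2 difference of the value + 1 and bars its standard error for mimic minus control at the left and number 2 minus number 1 at the right. VPS26A at 0.78 and VPS26B at -1.38 stand on opposite sides between numbers. SNX6, chosen for its higher sum in the mimic, is the farthest from 0 between treatments, at 0.63.

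Markers of the cell line moved between the numbers as well. Of the glioma and astrocyte markers, VIM, CD44, NES and SLC1A3 were lower in number 2, 4 of the 5 tested, and GFAP was low, at 19.95 and 23.6 in number 2 against 29.7 and 12.5 in number 1. The summed level of these markers was 139590 and 148396 in number 2 against 291387 and 319960 in number 1. Neuron markers summed to 3062 and 3508 in number 2 against 7333 and 8711 in number 1, with SNAP25 and TUBB3 lower and SYT1 higher in number 2. Epithelial markers summed to 42.0 and 38.1 in number 2 against 69.3 and 59.3 in number 1, endothelial markers to 44.9 and 60.5 in number 2 against 192 and 165 in number 1, and immune markers to 7.63 and 6.72 in number 2 against 8.995 and 9.36 in number 1. The lower epithelial sum came from EPCAM alone, which passed limma's test (log2 difference -1.58 ± 0.38). CDH1, the only other epithelial marker with a row, did not follow it and did not pass (0.37 ± 0.46). S100B, RBFOX3, KRT5, KRT19 and CD3E had no row here. The part of these shifts in the VPS26A and VPS26B values was not tested, and fewer cells of a type and less RNA per cell cannot be told apart in bulk RNA.

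The wider sorting machinery was listed as 67 genes in 5 groups, of which 64 had a row and 61 were tested. Between mimic and control 0 of the 61 passed limma's test, and log2 fold changes ran from -0.30 to 0.19. Groups did not overlap for 5 genes with the mimic higher (8.20%, against 6.18% of all genes) and for 1 with the mimic lower, against 6.21%. That gene was EHD1, an ATPase of endosomal recycling, with 6331 and 5420 in the mimic against 7968 and 6573 in the controls.

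In the lists without a member, the extremes between mimic and control were small. Among 22 tested sorting nexins outside the dimer, the log2 fold change was highest for SNX24 (0.15) and lowest for SNX21 (-0.19), with a median of 0.01. In the WASH complex, which builds actin on endosomes, it ran from -0.02 (CAPZB) to 0.14 (WASHC4), with a median of 0.06. In the Commander complex, a related recycling coat, it ran from -0.24 (CCDC22) to 0.19 (COMMD8), with a median of 0.01. Regulators of retromer ran from -0.30 (EHD1) to 0.13 (ANKRD50), and cargo from -0.24 (SLC2A1) to 0.05 (SORT1), beside a median of -0.01 over all genes.

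Between numbers 31 of the 61 genes passed limma's test, 19 higher and 12 lower in number 2, which is 50.8% against 50.2% of all genes. Every list held genes on both sides. Among cargo, IGF2R, the mannose 6-phosphate receptor that retromer and its sorting nexins retrieve, reached 32449 and 33127 in number 2, with 14466 and 14352 in number 1 (log2 1.19 ± 0.07). SORT1, which encodes sortilin, another sorting receptor, was at 666 and 658 in number 2, with 1179 and 1107 in number 1 (log2 -0.79 ± 0.10). M6PR, SLC2A1, SLC11A2, LRP10 and SEMA4C were also higher in number 2, and WLS, the carrier of Wnt proteins, was lower.

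Among sorting nexins SNX24 had the largest difference upward (log2 1.00 ± 0.10) and SNX7 downward (-1.02 ± 0.09), and SNX8, SNX9, SNX11 and SNX16 were also higher. SNX3, which recruits retromer for Wnt carrier retrieval, was at 4664 and 4911 in number 2, with 7314 and 6868 in number 1 (log2 -0.57 ± 0.08), and SNX12, SNX13, SNX17 and SNX29 were lower too. In the WASH complex WASHC2C (log2 0.80 ± 0.08), WASHC2A and WASHC4 were higher and CAPZA1 (-0.51 ± 0.08) was lower. WASHC2A and WASHC2C are near-identical copies, so reads can be exchanged between them.

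The Commander gene VPS26C, a relative of VPS26A, was higher in number 2 (log2 0.59 ± 0.08), as was COMMD5, while COMMD4 and COMMD9 (-0.79 ± 0.11) were lower. RAB7A, the small GTPase that brings retromer to late endosomes, was higher (0.42 ± 0.07), with ANKRD27 and ANKRD50 (0.51 ± 0.09), and DNAJC13 was lower (-0.37 ± 0.08).

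**Figure D5:**
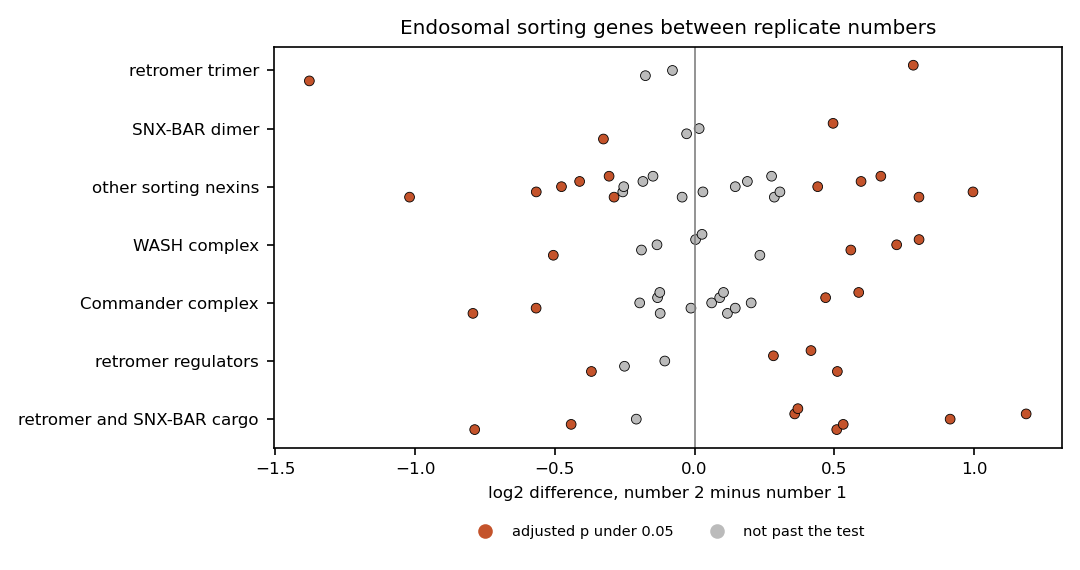
Each point is a gene, with its log2 difference between number 2 and number 1 on the x axis and its list on the y axis, coloured where limma's adjusted p was under 0.05. Coloured points lie on both sides of 0 in every list, from SNX7 at -1.02 to IGF2R at 1.19 in the lists without retromer or dimer genes.

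The genes whose pattern over the 4 libraries was nearest to that of SNX6 were PCBP1-AS1, NME1-NME2 and C10orf95-AS1. The measure was the Euclidean distance of centred log2 values, which was 0.016, 0.165 and 0.177 among 11654 genes with a mean of at least 100. PCBP1-AS1 had 252 and 230 in the mimic libraries against 153 and 158 in the controls. NME1-NME2 is a readthrough gene and had 851 and 778 in the mimic against 591 and 540 in the controls, and C10orf95-AS1 had 117 and 121 in the mimic against 75.9 and 87.4 in the controls. This likeness over 4 libraries was not tested.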

How the data were processed

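The deposited table holds a normalized signal per transcript and library. Per the submitters' processing notes, the authors used kallisto, DESeq2 and hg38, and no version or annotation release is given in the sources used here. In the low values 95.57% to 99.72% were whole multiples of 1 step (tolerance 0.1), and dividing by it recovered 28860788 to 33848402 reads per library for edgeR and DESeq2. Every row held at least 10 reads over the 4 libraries. Of 100809 rows, 90643 matched GENCODE v29 by identifier and were summed over 22031 genes.

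Limma with a trend was fitted to log2(value + 1), which understates changes of low genes, for genes or transcripts with a mean of at least 10, with Benjamini-Hochberg adjustment at 0.05, two-sided. The tests were tried on simulated data. The members, gene lists and naming rule were chosen with earlier results of these data known. The rule takes all 8 genes, all SNX6 rows, other rows with at least 10% of their gene, the extremes and called genes of each list, and the 3 genes nearest to SNX6. Single rows of VPS35 are not reported here. The tools were limma 3.58.1, edgeR 4.0.16 and DESeq2 1.42.0 in R 4.3.3, and scipy 1.17.1 and pandas 2.3.3 in Python 3.11.15. Alternatives covered the pseudocount, filters, scaling and leaving out each library. The GC correction and the replicate block were tried for mimic against control only.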

Additional observations from a re-analysis of the deposited data

How the results depend on the processing

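The deviations of libraries with the same number from their group means had r = 0.745 over 16535 genes, but the labels do not establish pairs. With a replicate block limma called 117 genes between mimic and control, edgeR 91 and DESeq2 5, and the replicate block with GC correction called 8, against 0 without a block. The log2 fold change of SNX6, given without a test, was 0.57 to 0.63 in these fits. No transcript was called by limma with the block (0, with 2260 at an unadjusted p under 0.05). None of the 7 partners changed its call. The edgeR and DESeq2 fits with the block and the split of SNX6 rows by version (log2 0.45 for the version of GENCODE v29, 0.71 for later ones) were added after the data were seen. No rows of the SNX6 pseudogene were present, so that alternative gave no value.

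With each library left out in turn the numbers become unequal between groups, so their difference enters. Between mimic and control the log2 fold change then ran from -0.0291 to 0.12 for VPS35, from -0.35 to 0.55 for VPS26A, from -0.64 to 0.81 for VPS26B, from -0.0078 to 0.0932 for SNX1, from -0.0478 to 0.46 for SNX2, from -0.0841 to 0.31 for SNX5, from -0.0263 to 0.91 for SNX6-202 and from -0.37 to 1.125 for SNX6-209. It stayed between 0.57 and 0.68 for SNX6 and between 0.41 and 0.90 for SNX6-206. The groups of SNX6 and SNX6-206 did not overlap, so leaving out a library could not reverse their direction. VPS35 was at -0.0056 with the GC correction, with or without the block. Between numbers the genes called ran from 5163 to 7942, SNX1 from -0.0474 to 0.08 and SNX6 from -0.38 to 0.33, and SNX1 was at -0.0279 with the same total per library. VPS26A ran from 0.67 to 0.89 and VPS26B from -1.46 to -1.30. Apart from these cases, the other pseudocounts, filters, scalings and tools tried kept the direction and call of the 7 partners. They also kept the direction of SNX6, for which SNX6 had been chosen. The GC correction was run for mimic against control only, so the differences between numbers were never corrected for GC content. The matched rows had 39.2% GC for VPS26A and 56.3% for VPS26B. The part of GC content in their difference between numbers was not tested.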
